A study of Zea mays with 144 samples.

Results

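The fermentation genes adh1 and LDH were followed through anther development in maize (Zea mays) on spotted cDNA arrays. All features whose gene has the symbol or synonym adh1 or LDH were taken, which gave 4 of the 12160 features of the array. Features 7442 and 10415 stand for adh1 (LOC542363), and features 7486 and 10814 stand for LDH (LOC100282503). The 2 genes are among the 4903 genes that the array annotation ties to a feature with 1 gene. The rule uses gene names and no measured value.

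Anthers of the inbred line Ky21 were dissected from the upper or the lower floret of tassel spikelets and staged under the light microscope. The 3 meiotic stages were meiocyte, dyad/tetrad (a mixed class) and tetrad. The 3 microspore stages were early, mid- and mid/late (also mixed), and each of the 12 groups of stage and floret had 2 RNA pools. Each pool was made from 1 to 4 individuals, taking 8 to 20 anthers from a tassel, and its RNA was amplified by T7 transcription. Whole anthers were used, so the cell types of the anther are not resolved. The 24 pools formed 2 sets of 12, and 48 slides each compared 2 pools of a set, 24 between stages and 24 between florets, each read in 3 scans of low, medium and high intensity.

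When oxygen limits respiration, plant cells regenerate NAD+ by fermentation. Lactate dehydrogenase, the product of LDH, reduces pyruvate to lactate, while pyruvate decarboxylase and alcohol dehydrogenase turn pyruvate into acetaldehyde and then ethanol. In maize, adh1 is the classical gene induced by flooding of roots, and its enzyme is also abundant in pollen, where its activity has long been used as a stain for the haploid genotype.

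Each pool value is a log2 ratio against the average over the 12 pools in the same set. Only ratios were measured, without absolute levels, and features cannot be ranked by abundance. Pools are bulk anther samples, in which fewer cells of a type and less RNA per cell cannot be told apart. Calls were made with limma over all 12160 features where the adjusted p (Benjamini-Hochberg) was below 0.05. Such p-values reflect only how these pools vary. The labels do not say which dye is the numerator. Directions given here rest on reading stage slides as Cy5 over Cy3, which is likely at most, and the other reading would exchange every higher and lower. Over all features, the median of the pooled SD between the 2 pools of a group was 0.23. Of the marker genes listed, 4 meiocyte genes, 1 tapetum gene and 2 pollen genes were on the array and no epidermis gene. The mean of the meiocyte markers was 0.80 in upper and 0.94 in lower florets at the meiocyte stage, and between -0.37 and -0.03 at the later stages. These markers did not all change alike. The stage effect of rad51b was not called in upper or lower florets (F test, adjusted p = 0.396 and 0.741).

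The 4 features did not share one profile. LDH feature 10814 rose through the microspore stages alike in both florets, both adh1 features were higher in upper than in lower florets, and LDH feature 7486 was lower in upper florets with a wide spread between scans. Over the 12 group means, the 2 LDH features had a Pearson correlation of -0.06 and the 2 adh1 features one of 0.57. These correlations describe features that share all slides, and each rests on 12 points. The plot of pool values by stage shows the 4 profiles.

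**Figure D1:**
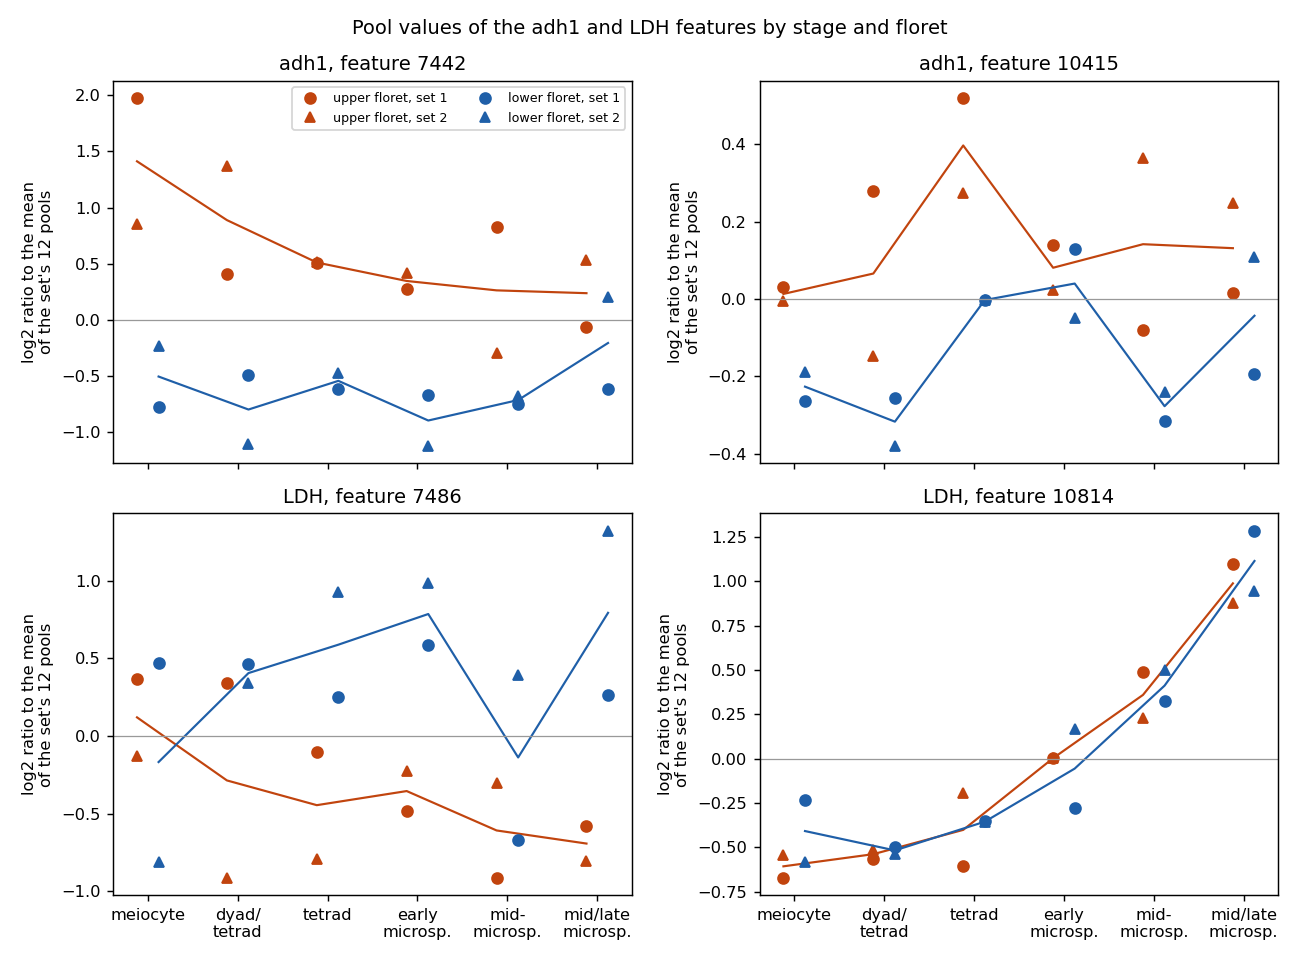
Pool values (log2 ratio against the set average, mean of 3 scans) of the 4 features over the 6 stages. Points are pools (circles set 1, triangles set 2), lines join the means of 2 pools, and scales differ between panels. LDH feature 10814 climbs from -0.61 to 0.99 in upper florets, and the upper pool of adh1 feature 7442 lies above the lower pool of its set at each stage.

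LDH feature 10814 was lowest at the meiocyte stage of upper florets and highest at the mid/late microspore stage of lower florets. In upper florets, its pools of set 1 and set 2 stood at -0.67 and -0.54 at the meiocyte stage, at -0.56 and -0.51 at the dyad/tetrad stage, and at -0.61 and -0.20 at the tetrad stage. The microspore stages of upper florets followed with 0.00 and 0.00 at early, 0.49 and 0.23 at mid- and 1.10 and 0.88 at mid/late microspore. Every upper pool of a microspore stage was thus above every upper pool of the meiotic stages, and the mid/late pools were the highest of their floret.

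Lower florets ran the same course. Pools of feature 10814 were at -0.23 and -0.58 at the meiocyte stage, at -0.50 and -0.54 at the dyad/tetrad stage, and at -0.35 and -0.36 at the tetrad stage. They then reached -0.28 and 0.17 at early, 0.32 and 0.50 at mid- and 1.29 and 0.95 at mid/late microspore. Over both florets, 11 of 12 microspore pools lay above the highest meiotic pool. The exception was the early microspore pool of lower florets in set 1.

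The stage effect of LDH feature 10814 passed the test in upper florets (F test, adjusted p = 1.42e-04) and in lower florets (adjusted p = 1.38e-04). It was the only one of the 4 features called in either floret, against 37.5% of all features in upper and 37.5% in lower florets. Between the meiocyte and the mid/late microspore stage it rose by 1.60 ± 0.19 (SE) log2 units in upper florets, which is 3.02-fold (adjusted p = 5.77e-05). The rise in lower florets was 1.52 ± 0.19, or 2.87-fold (adjusted p = 8.75e-05). Those ends of the series were called for 26.7% of all features in upper and 27.8% in lower florets, and 332 features had a higher ratio than feature 10814 in upper florets.

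Averaged over both florets, feature 10814 was 0.94 ± 0.08 higher at the 3 microspore stages than at the 3 meiotic stages (1.92-fold, adjusted p = 3.46e-07). The difference was 0.98 in set 1 and 0.91 in set 2. Microspore against meiotic stages was called for 56.4% of all features, and of the 4 features only this one was called.

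The rise was spread over the microspore stages. No single step between neighbouring stages was called for any of the 4 features, 0 of 40 tests by limma, with 3 at an unadjusted p under 0.05, against 2.44% of all steps of all features. All 3 belonged to feature 10814. They were the steps from mid- to mid/late microspore in upper (0.63, adjusted p = 0.121) and lower florets (0.70, adjusted p = 0.0799) and the step from early to mid-microspore in lower florets (0.47, adjusted p = 0.288). In the order of the 12 group means of feature 10814, 3 of 11 gaps between neighbours exceeded its pooled SD between pools of 0.18. These gaps set apart both mid/late groups, then both mid-microspore groups, then both early microspore groups from the rest, and the 6 meiotic groups followed each other by at most 0.11.

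The ends of the series were also hybridised directly. On those slides feature 10814 was 1.63 and 1.08 higher at the mid/late microspore than at the meiocyte stage in upper florets of set 1 and set 2, and 1.84 and 1.76 higher in lower florets. The values fitted over all slides of a set were 1.77 and 1.42 in upper and 1.52 and 1.53 in lower florets. Ratios round a loop of 6 stage slides add to 0 without error or dye effect, and for feature 10814 the 4 loops, each taken as Cy5 over Cy3, added to -0.45, -0.58, -1.52 and 0.87. The loop errors thus reached the size of the change itself in upper florets of set 2, and the fit spreads them over the slides.

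Florets did not separate LDH feature 10814. Its 12 upper pools ranged from -0.67 to 1.10 with a median of -0.10, and its 12 lower pools ranged from -0.58 to 1.29 with a median of -0.26. The mean difference, upper minus lower, was -0.06 ± 0.08 (95% interval -0.23 to 0.11, adjusted p = 0.585). On the 24 floret slides the ratio was above 0 on 10.

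LDH feature 7486, assigned to the same gene, did not show the rise. In upper florets its group mean was 0.12 ± 0.35 (SD, n = 2 pools) at the meiocyte stage and -0.69 ± 0.16 at mid/late microspore, with -0.45 at tetrad and -0.35 at early microspore between them. In lower florets the ends were at -0.17 ± 0.91 and 0.79 ± 0.75. The stage effect was not called in upper (adjusted p = 0.767) or lower florets (adjusted p = 0.389). Its last-minus-first differences were -0.81 ± 0.52 (SE) in upper florets (adjusted p = 0.274) and 0.96 ± 0.52 in lower florets (adjusted p = 0.193), each with an interval that includes 0. Both values moved with the scan. In the low, medium and high scan alone, the difference was 0.017, -2.90 and 0.45 in upper florets and -0.019, 0.50 and 2.40 in lower florets. Without 1 pool at a time it ranged from 0.26 to 1.66 in lower florets.

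Averaged over stages, feature 7486 was 0.76 ± 0.21 lower in upper than in lower florets (1.69-fold, adjusted p = 0.0190). Its 12 upper pools had a lowest value of -0.91, a median of -0.39 and a highest of 0.37. The 12 lower pools ran from -0.81 through a median of 0.43 to 1.32, so that the florets overlapped. In 1 of 12 pairs of the same stage and set the upper pool was the higher one. The difference was -0.46 in set 1 and -1.05 in set 2.

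Of the 3 scans taken alone, only the medium one gave that call. The floret difference of feature 7486 was -1.74 in the medium scan (adjusted p = 0.0203), -0.0085 in the low scan (adjusted p = 0.933) and -0.52 in the high scan (adjusted p = 0.363). In 45 of 48 low scans and 12 of 48 medium scans the feature held the scan's most frequent value, which lay near a ratio of 1 and was shared by a mean of 9.81% of features in low and 2.01% in medium scans. Ratios beyond 2 log2 units in either direction were read on 24 of 48 slides in the medium and 10 of 48 in the high scan. Over the 24 pools, its values correlated at -0.15 between the low and medium, -0.42 between the low and high and 0.17 between the medium and high scan. The part that a weak signal had in these values was not tested, since signals over background are not used here.

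For LDH feature 10814 the scans gave one picture, with correlations of 0.99 for each pair of scans. The pooled SD between pools was 0.55 for feature 7486, larger than for 91.8% of all features, against 0.18 for feature 10814. The correlation of the 12 groups between set 1 and set 2 was 0.27 for feature 7486 and 0.92 for feature 10814. Whether the 2 LDH features detect the same transcript was not tested, as probe sequences are not used here.

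**Figure D2:**
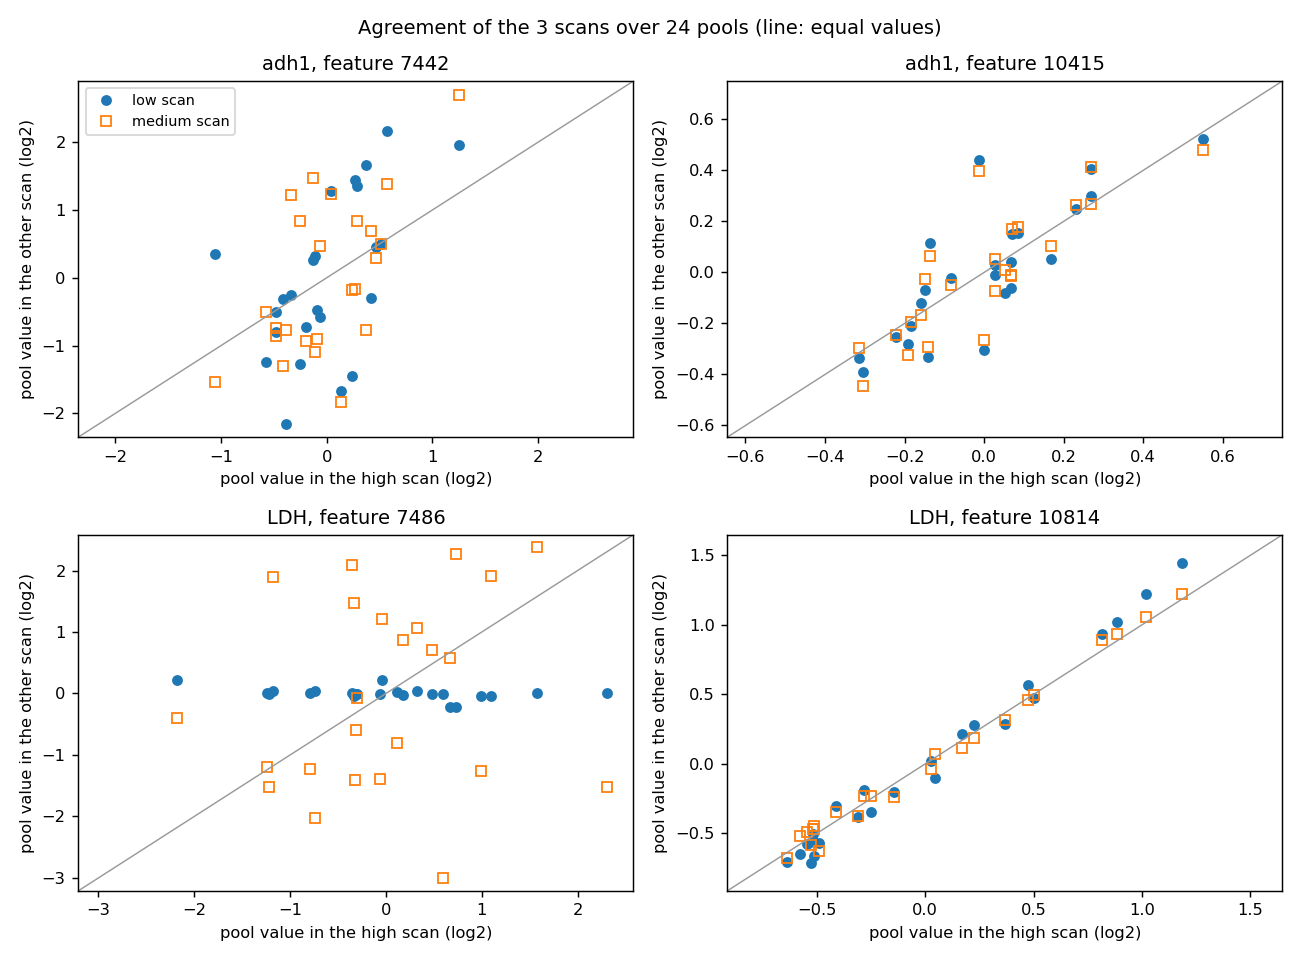
Value of each of the 24 pools in the low scan (filled circles) and the medium scan (open squares) against its value in the high scan, all in log2, with a line of equal values. Points of LDH feature 10814 follow the line, while the low-scan values of LDH feature 7486 stay near 0 and its medium-scan values scatter.

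For adh1, the gene of alcohol dehydrogenase, the last enzyme of ethanol fermentation, the RNA ratios showed a floret difference. For adh1 feature 7442 the pools of upper florets were at 1.97 and 0.85 in set 1 and set 2 at the meiocyte stage, at 0.40 and 1.37 at the dyad/tetrad stage, and at 0.50 and 0.52 at the tetrad stage. At the microspore stages of upper florets they were at 0.27 and 0.42 (early), 0.82 and -0.30 (mid-) and -0.06 and 0.53 (mid/late). The highest pool was thus the meiocyte pool of set 1, and pools of a group lay up to 1.12 apart.

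Lower florets of the same feature stood below. Pools were at -0.78 and -0.23 at the meiocyte stage, at -0.49 and -1.11 at the dyad/tetrad stage, and at -0.62 and -0.47 at the tetrad stage. The microspore stages gave -0.67 and -1.12 (early), -0.75 and -0.68 (mid-) and -0.62 and 0.21 (mid/late). In all 12 pairs of the same stage and set the upper pool was above the lower one, and 10 of 12 upper pools lay above the highest lower pool.

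Averaged over stages, adh1 feature 7442 was 1.22 ± 0.18 (SE) log2 units higher in upper florets, or 2.33-fold (adjusted p = 0.0006). The difference was 1.31 in set 1 and 1.13 in set 2, and 8 of 12160 features had a higher ratio. Its pooled SD between pools was larger than for 87.4% of all features. Over the 24 pools its scans correlated at 0.50 (low and medium), 0.56 (low and high) and 0.60 (medium and high). Set 1 and set 2 correlated at 0.62 over the 12 groups, but at 0.06 within upper and -0.29 within lower florets. The mean floret difference was called for 26.7% of all features and for 3 of the 4 features described here. For feature 7442 the difference was 1.92 at the meiocyte stage, 1.69 at dyad/tetrad, 1.05 at tetrad, 1.24 at early, 0.98 at mid- and 0.44 at mid/late microspore, each ± 0.45.

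Single stages did not pass the test. Of the 24 floret differences at one stage, 6 for each feature, limma called 0, with 9 at an unadjusted p under 0.05, against 0.0274% called over all features and stages. The lowest adjusted p was 0.135, for adh1 feature 7442 at the meiocyte stage. No interaction of floret and stage was called by the limma F test for any of the 4 features or for any other feature (0% of 12160). At an unadjusted p under 0.05 were 0 of the 4 and 270 of all. The 270 are a smaller share than the 0.05 that features without an interaction would give. The test took pool values as independent although pools share slides, so no absence of an interaction can be read from it. The smaller floret difference of feature 7442 at mid/late microspore is thus a value without a test that passed.

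Slides that compared the florets directly showed the same sign in both dye orientations. For each of the 4 features, the mean over these slides is the same value as the mean floret difference between pools. For feature 7442 both are 1.22, so the slides give no second measurement of it. The ratio of adh1 feature 7442 was above 0 on 22 of 24 slides, 10 of 12 with the upper pool in Cy5 and 12 of 12 with the upper pool in Cy3. Its mean was 1.18 in the first and 1.26 in the second orientation. The lowest ratio was -0.38, at the mid-microspore stage, and the highest 3.70, at the meiocyte stage. These slides were read as upper over lower floret whatever the dyes. Read by the dyes of the labels instead, the difference would be -0.040 (adjusted p = 0.945). On the 24 stage slides, the mean of Cy5 over Cy3 was -0.41 for this feature, opposite in sign to its mean on the floret slides. It was -0.08 for adh1 feature 10415, also opposite in sign (0.28 on floret slides). For LDH features 7486 and 10814 it was -0.34 and -0.07, the same sign as on floret slides (-0.76 and -0.06). A part of the dyes in these means was not tested.

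**Figure D3:**
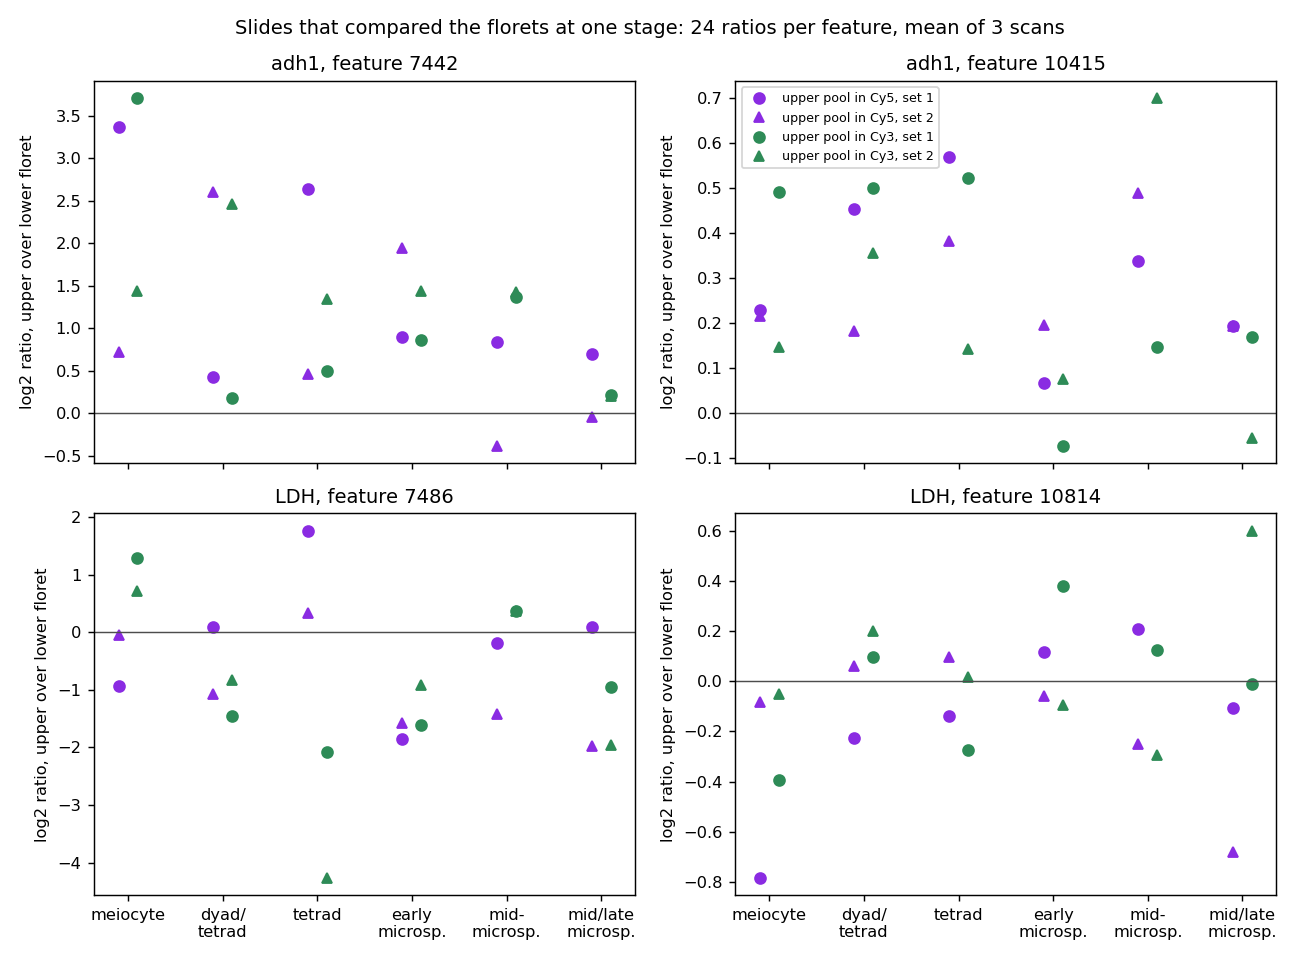
Log2 ratio of upper over lower floret on the 24 slides that compared florets, by stage, for each feature (mean of 3 scans). Colour gives the dye of the upper pool and shape the set, and scales differ between panels. Both adh1 features have 22 of 24 ratios above 0 in this reading, LDH feature 7486 has 8 and LDH feature 10814 has 10.

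The size of the floret difference of adh1 feature 7442 depended on the scan. It was 1.76 in the low scan (adjusted p = 0.0024), 1.26 in the medium scan (adjusted p = 0.0180) and 0.65 in the high scan (adjusted p = 0.0048). In 30 of 48 low scans the feature held the scan's most frequent value, and its ratios reached 6.88 in the low and 3.12 in the high scan. Ratios more than 1e-06 above 0 were read on 13 of 24 floret slides in the low scan, where 9 were at 0 and 2 below it. They were read on 22 slides in the medium and 20 in the high scan. A part of a weak signal in the size was not tested.

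The second adh1 feature, 10415, had the same direction with a smaller difference. Its 12 upper pools ran from -0.15 through a median of 0.08 to 0.52, and its 12 lower pools from -0.38 through a median of -0.19 to 0.13. The florets overlapped, but in all 12 pairs of the same stage and set the upper pool was the higher one. The mean difference was 0.28 ± 0.07 (1.21-fold, adjusted p = 0.0157), with 0.30 in set 1 and 0.25 in set 2. On the floret slides the ratio was above 0 on 22 of 24, 12 of 12 with the upper pool in Cy5 and 10 of 12 in Cy3.

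Scans of adh1 feature 10415 were close to each other, with correlations over pools of 0.98 (low and medium), 0.82 (low and high) and 0.84 (medium and high). Its floret difference was 0.32 in the low (adjusted p = 0.0080) and 0.32 in the medium scan (adjusted p = 0.0065), and 0.18 in the high scan, where it was not called (adjusted p = 0.138). The pooled SD between pools was 0.17, against 0.47 for feature 7442. Spotted cDNA can also bind RNA of close relatives such as adh2, a second maize alcohol dehydrogenase gene, and that share was not tested.

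Neither adh1 feature was called between stages. For feature 7442 the stage effect had an adjusted p of 0.217 in upper and 0.762 in lower florets. Its mid/late microspore minus meiocyte difference was -1.17 ± 0.45 in upper florets (95% interval -2.14 to -0.20, adjusted p = 0.0694), made up of -2.03 in set 1 and -0.32 in set 2. Without the meiocyte pool of upper florets in set 2 that difference was -1.78 (adjusted p = 0.0240), and without the one of set 1 it was -0.56 (adjusted p = 0.513). In lower florets the difference was 0.30 ± 0.45 (adjusted p = 0.667). On the slides that hybridised the end stages directly, it was -0.75 and -0.48 in set 1 and set 2 of upper florets and -0.29 and -0.22 in lower florets.

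The highest group of adh1 feature 10415 was the tetrad stage of upper florets, with 0.52 in set 1 and 0.27 in set 2. In lower florets it was highest at early microspore (0.04 ± 0.13, SD of 2 pools) and lowest at dyad/tetrad (-0.32 ± 0.09). Adjusted p-values of the stage effect were 0.516 in upper and 0.384 in lower florets. Mid/late microspore minus meiocyte was 0.12 ± 0.18 (95% interval -0.28 to 0.51) in upper and 0.18 ± 0.18 (-0.21 to 0.58) in lower florets. Without 1 pool at a time, the value in lower florets ranged from 0.018 to 0.35.

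Microspore minus meiotic stages was 0.02 ± 0.07 (95% interval -0.14 to 0.18, adjusted p = 0.806) for adh1 feature 10415. It was -0.32 ± 0.18 (-0.72 to 0.07, adjusted p = 0.151) for adh1 feature 7442 and -0.07 ± 0.21 (-0.53 to 0.39, adjusted p = 0.796) for LDH feature 7486. In the order of the 12 groups, the 6 upper groups of feature 7442 took the 6 highest places. Only 1 of its 11 gaps between neighbours exceeded its pooled SD, the one between the meiocyte and dyad/tetrad stages of upper florets, against 2 of 11 for feature 10415 and 0 of 11 for LDH feature 7486.

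Pyruvate decarboxylase, the enzyme at the branch to ethanol, was represented by pdc1 (feature 9082) and pdc3 (features 3375 and 5282). No feature with 1 gene was found for adh2 or pdc2. The 7 features of the fermentation list include the 4 above, and 3 of 7 had a stage effect in upper and 1 in lower florets, beside 37.5% of all features in each floret. Over the 7, the median of microspore minus meiotic stages was 0.02, beside 0.01 over all features, with 2 called, both higher, beside 56.4% of all features called.

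The feature of pdc1 was the second of these 2 calls. Its group means over both florets were between -0.76 and 0.11 at the meiotic stages and between 0.03 and 0.78 at the microspore stages. It was 0.65 ± 0.14 higher at microspore stages (1.56-fold, adjusted p = 0.0011), with 0.71 in set 1 and 0.58 in set 2. Its 2 meiocyte pools of upper florets disagreed, at -0.49 and 0.72, and the change from meiocyte to mid/late microspore was not called in upper (0.67 ± 0.33, adjusted p = 0.154) or lower florets (0.46 ± 0.33, adjusted p = 0.332).

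The 2 features of pdc3 differed. Feature 3375 had a stage effect in upper florets (adjusted p = 0.0227), with pools of 0.38 and 0.37 at meiocyte, 0.39 and 0.83 at early and -0.24 and -0.27 at mid/late microspore. It fell by 0.63 between the ends in upper florets (adjusted p = 0.0442) and was 0.27 ± 0.09 higher in upper than lower florets (adjusted p = 0.0340). Feature 5282 had a floret difference of 0.26 ± 0.15 (adjusted p = 0.207) and a change of 0.21 ± 0.36 between the ends in upper florets (adjusted p = 0.723). Over the 7 fermentation features the median floret difference was 0.26, beside 0.01 over all features, with 4 called, 3 higher and 1 lower in upper florets, beside 26.7% of all features.

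Glycolysis supplies the pyruvate. All 8 features of the 7 glycolysis genes on the array were called between microspore and meiotic stages, 7 lower and 1 higher, beside 56.4% of all features called, and their median was -0.67 beside 0.01 over all features. The decreases were -1.20 ± 0.10 for gpc4 (feature 10978), -1.04 ± 0.12 and -1.16 ± 0.12 for the 2 features of gpc3, both cytosolic glyceraldehyde-3-phosphate dehydrogenases, and -0.82 ± 0.12 for the gene named enolase. Smaller decreases were -0.53 ± 0.09 for aldolase2, a fructose-bisphosphate aldolase, -0.29 ± 0.07 for gpc2 and -0.21 ± 0.07 for eno2, another enolase. The exception, phi1, a glucose-6-phosphate isomerase, was 0.32 ± 0.07 higher at microspore stages (adjusted p = 0.0011).

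Use of pyruvate in mitochondria was represented by pdh2, a subunit of the pyruvate dehydrogenase complex, with 2 features. Both fell between meiotic and microspore stages, by 1.28 (adjusted p = 8.4e-06) and by 1.96 (adjusted p = 2.56e-09). Between the meiocyte and mid/late microspore stages feature 3379 fell by 2.84 in upper and by 3.17 in lower florets.

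Genes known from responses to low oxygen comprised sus1 (also named ss2), a sucrose synthase, with 6 features, the hemoglobin gene GLB1 with 1 and rbohD, a respiratory burst oxidase, with 2. At microspore stages 8 of these 9 features were higher and 1 lower, beside 56.4% of all features called, and 6 of the 9 stand for 1 gene. The median was 0.86 beside 0.01 over all features. The sus1 features were between 0.52 and 1.26 higher, and GLB1 was 0.85 ± 0.27 higher (adjusted p = 0.0169). The 2 features of rbohD gave -0.74 ± 0.07 and 0.28 ± 0.11. Their courses differed among themselves. In 5 of the 6 sus1 features the early microspore group was the highest of each floret, at 0.91 to 1.60 in upper and 1.15 to 1.96 in lower florets. As for LDH feature 10814, the mid/late microspore group was the highest for sus1 feature 9109 (1.08 in upper and 1.64 in lower florets) and for GLB1 (1.41 and 1.08). The stage effect of GLB1 was not called in upper or lower florets (F test, adjusted p = 0.165 and 0.272). Its rise from meiocyte to mid/late microspore was 2.94 in set 1 and 0.70 in set 2 of upper florets. In lower florets it was 2.34 and 1.39. None of the 9 had a called floret difference (limma), beside 26.7% of all features, and 0 had an unadjusted p under 0.05.

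**Figure D4:**
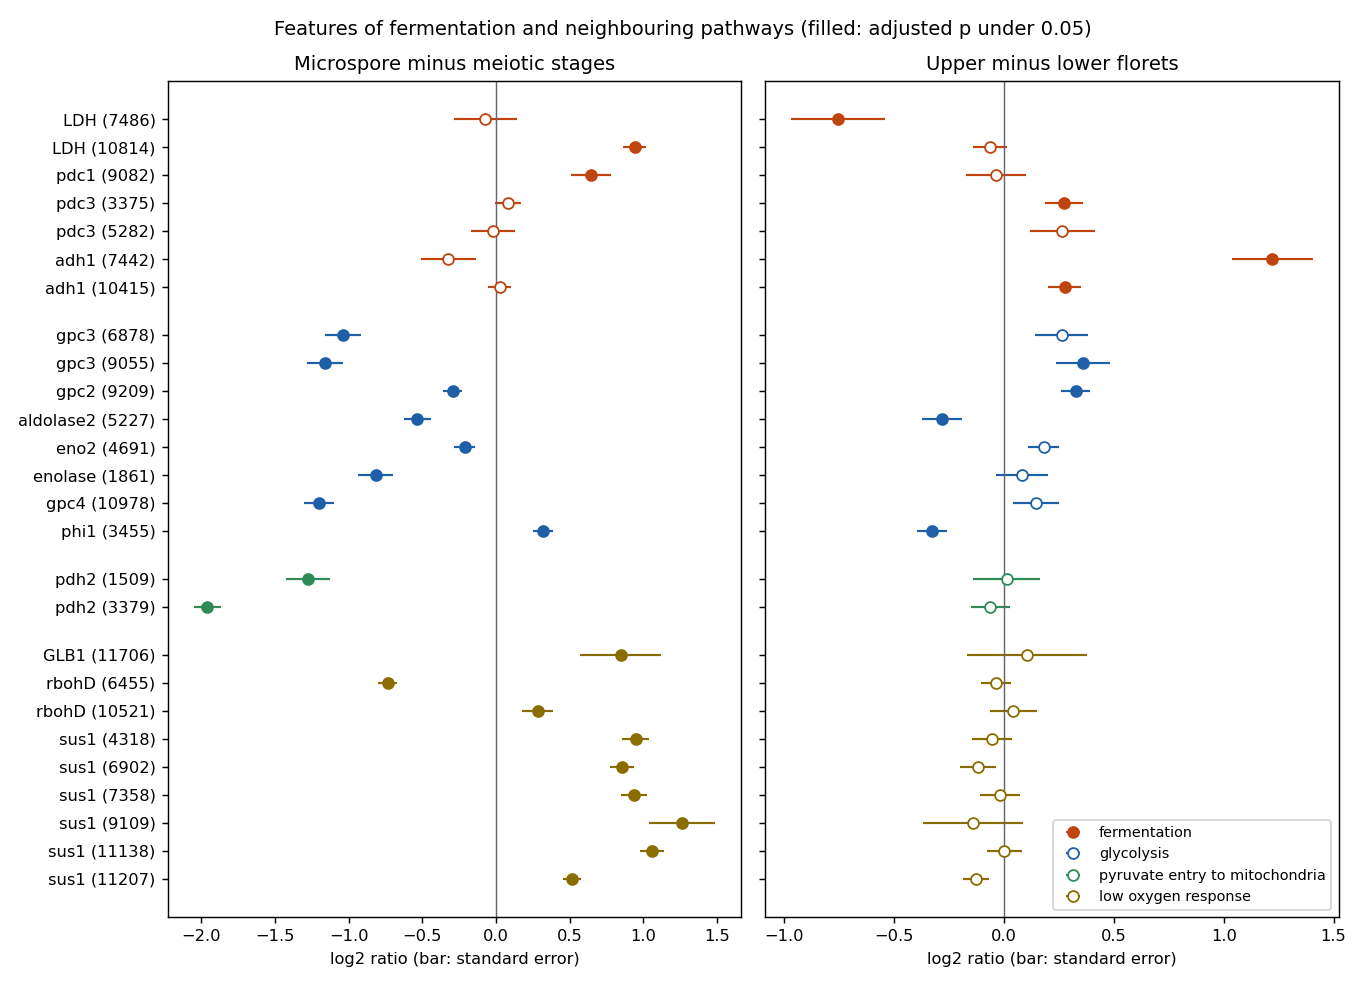
Log2 ratios of microspore minus meiotic stages (left) and of upper minus lower florets (right) for each feature of the 4 gene lists, with standard errors from 24 pools. Filled points have an adjusted p under 0.05. LDH feature 10814, pdc1 and the sus1 features lie to the right of 0 on the left side, while 7 of 8 glycolysis features and both pdh2 features lie to the left, and adh1 feature 7442 stands farthest right among florets.

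Markers of other cell types changed over the same stages. Of the 4 meiocyte markers, 3 were lower at mid/late microspore than at meiocyte in upper florets (26.7% of all features called) and 2 in lower florets (27.8%). Among them rad51a, a strand-exchange protein of meiosis, was at -1.36 ± 0.35 and -2.24 ± 0.35, while rad51b, not called, was at -0.12 ± 0.58 and 0.10 ± 0.58. Between microspore and meiotic stages 2 of the 4 were called, both lower, beside 56.4% of all features. The markers afd1 (0.07 ± 0.08) and rad51b (0.26 ± 0.24) were not called there. The tapetum gene ms23, a regulator of tapetal differentiation, was 0.52 ± 0.10 higher at microspore stages and 0.37 ± 0.10 higher in upper florets (adjusted p = 0.0161). Of the 4 pollen features, 1 was higher and 2 lower at microspore stages, beside 56.4% of all features called. Over the 12 groups, the mean of each marker list ranged from -0.37 to 0.94 for meiocytes, from -0.62 to 0.75 for the tapetum gene and from -0.23 to 0.23 for pollen. Their part in the changes of LDH feature 10814, adh1 and pdc1 was not tested.

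Among 617 named features of other genes with a stage effect in at least one floret, the profile most like that of LDH feature 10814 over the 12 group means was that of USP (feature 1494, r = 0.98). Next were both features of HO-1, a heme oxygenase (0.98 and 0.97), then prp2 (0.97) and abcf1 (0.97). Least alike were gpc4 (-0.98) and the 2 features of gpc3 (-0.97 each). Within set 1 the correlation with gpc4 was -0.96 and within set 2 it was -0.95, while that with USP was 0.89 and 0.82. The group means share slides and pools, and many features rise or fall steadily over these stages.

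**Figure D5:**
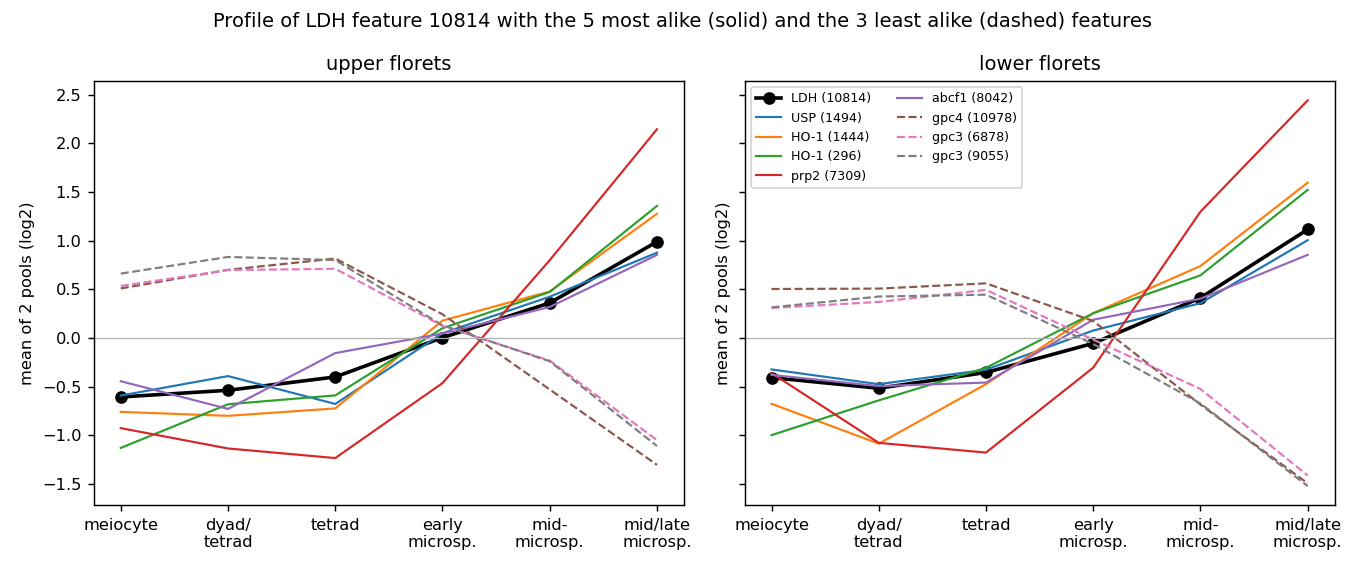
Means of 2 pools (log2) over the 6 stages in upper (left) and lower florets (right) for LDH feature 10814 (black), the 5 features with the highest (solid) and the 3 with the lowest correlation (dashed). Between meiocyte and mid/late microspore in upper florets the difference is 3.07 for prp2 and -1.81 for gpc4.

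For adh1 feature 7442 the most alike of 618 such features was argonaute1 (feature 1965, r = 0.88), followed by CAT3, a catalase (0.79), cesa10, a cellulose synthase (0.78), BRK3 (0.77) and gpc2, a cytosolic glyceraldehyde-3-phosphate dehydrogenase (0.74). All 5 had a positive floret difference, of 2.03 for argonaute1, 0.78 for CAT3, 1.10 for cesa10, 0.29 for BRK3 and 0.33 for gpc2. Least alike were cc7, a cystatin (-0.86), PAD1 (-0.85) and his1a, a histone H1 (-0.84).

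For adh1 feature 10415 likeness was lower, with tip1, a tonoplast aquaporin, at 0.76, Agpat4 at 0.73, the 2 features of Atg8d, an autophagy protein, at 0.72 and 0.71, and ERECTA at 0.72. The correlation with tip1 was 0.83 within set 1 and 0.36 within set 2. With Agpat4 it was 0.89 and 0.18, and with ERECTA 0.89 and 0.21. The 2 features of Atg8d had 0.54 and 0.61, and 0.50 and 0.64. The lowest were EREB192 (-0.73), expa2, an expansin (-0.66), and pcna2 (-0.63). LDH feature 7486 was most like frk1, a fructokinase (0.81), gst1, a glutathione transferase with 2 features (0.69 and 0.67), PMP3 (0.66) and CNR08 (0.64). It was least like bHLH161 (-0.73), Actin-7 (-0.63) and pglcat6 (-0.63). Within set 1 and set 2 its correlation was 0.50 and 0.73 with frk1, -0.04 and 0.79 with PMP3, and 0.05 and 0.82 with CNR08. For the 2 features of gst1 it was 0.31 and 0.65, and 0.38 and 0.59.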

How the data were processed

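The deposited values were read as natural logs of the ratio of the 2 channels. There is 1 for each of 12160 features in 144 scans of 48 slides, and none is missing. Column medians lay between -0.025 and 0.033. No source names the log base, so it was read from the data. In low scans, distances between values that at least 3 features share matched the natural log in 63 cases, log2 in 19 and log10 in 8, within 5e-06. The software the authors normalised with was "not given in the sources used here". Without signals over background, which are not used here, precision is limited by the number of pools.

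Values were converted to log2, the median of every scan was set to 0, and a slide's value is the mean over its 3 scans. Within each set, pool values were estimated from all slides by least squares (R 4.3.3 with MASS 7.3.60.0.1). limma 3.58.1 then fitted 12 groups plus a term for set, because no slide joins the sets, with 11 residual degrees of freedom. The fit took pool values as independent, although pools of a set share slides. Adjustment ran over all features, with the 10 steps as one family and the 6 floret differences as another. On simulated data, only the comparison of mid/late microspore with meiocyte in upper florets was tried. Figures were drawn with matplotlib 3.10.9.

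Slides between florets were read as upper over lower floret whatever the dyes. In 10 closed squares of slides, the difference between the florets' steps correlated over features with the change seen on floret slides at 0.27 to 0.48 in this reading, and at -0.05 to 0.05 when slides were turned by their dyes.

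The array annotation gave 6412 features 1 gene, of which 6358 were found in the RefSeq annotation of maize that supplied symbols and synonyms. Gene lists were matched by symbol or synonym only, and 23 of 86 genes searched were found. The pollen gene PG14 was taken for the PG of the list. All features of adh1, LDH and the pdc genes are named. From the lists, features with a called stage effect or mean floret difference are named, at most 6 per list by the smallest stage p. The features of aldolase2, gpc2 and GLB1, 1 feature of sus1 and 1 of rbohD fall outside that rule and were added after their values were seen, to complete their lists. For likeness, the 5 most and 3 least alike features with a gene name are given. The members and the lists were chosen with earlier results of these data known. Promoter motifs and probe or protein sequences are not analysed here.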

Additional observations from a re-analysis of the deposited data

Results flagged for a closer look

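For adh1 feature 7442, the mid/late microspore minus meiocyte difference was below 0 in both sets of upper florets (-2.03 and -0.32) and above 0 in both sets of lower florets (0.16 and 0.44). These values are fitted over all slides of a set. On the slides that hybridised the end stages directly the difference was below 0 in both florets, at -0.75 and -0.48 in upper and at -0.29 and -0.22 in lower florets. Upper minus lower florets, this difference was -1.47 ± 0.64 (SE) log2 units, with -2.19 in set 1 and -0.75 in set 2. It did not pass the limma test over all features (adjusted p = 1.00, unadjusted p = 0.0372), nor did the interaction of floret and stage (adjusted p = 1.00).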

How the results depend on the processing

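The stage effect of LDH feature 10814 in both florets, its rise between the end stages and its microspore minus meiotic difference stayed called in 12 other settings and in 24 fits without 1 pool each. Its rise between the ends ranged from 1.11 to 1.76 in upper and from 1.06 to 1.68 in lower florets over those settings. The low ends, 1.11 and 1.06, belong to the setting that reads the deposited values as log2. That setting rescales all values alike and cannot change a call. Turning the floret slides by their dyes gave mean floret differences of -0.040 for adh1 feature 7442, 0.016 for adh1 feature 10415 and 0.19 for LDH feature 7486, none called, and a last minus first difference of -0.39 in lower florets for feature 7442. The number of floret calls over all features then went from 3252 to 1, that of single-stage floret calls from 20 to 0, and that of steps from 2969 to 6454, 1 of them of the 4 features. With the low scan alone, feature 7486 gave last minus first differences of 0.017 in upper and -0.019 in lower florets and a floret difference of -0.0085. With the high scan alone it gave 0.45 for last minus first in upper florets, 0.52 for microspore minus meiotic stages and -0.52 between florets, while feature 10415 gave -0.013, -0.039 and 0.18 for the same measures. The median of the 3 scans gave 0.34, 0.58 and -0.46 for feature 7486, and the medium scan alone -2.90, -0.73 and -1.74. Its last minus first difference in lower florets was 2.40 in the high scan. Stage slides alone gave -0.14 for last minus first of feature 7442 in lower florets and 1963 step calls. Scaling the scans to one spread left 1376 and 1507 calls between the end stages in upper and lower florets, from 3246 and 3379. Single-stage floret calls numbered 41 in the low scan and with scaled scans, 114 with the median of scans and 31 with floret slides alone. They numbered 6 with a filter on small ratios and 140 with no replicate block for set, which changed no call of the 4 features. Pool values of each set average 0, so leaving out that block moves no estimate and changes only the degrees of freedom. The low scan gave 1 interaction call. Leaving out 1 pool at a time, last minus first ranged from -1.78 to -0.56 in upper and from -0.15 to 0.75 in lower florets for feature 7442, and from -0.0091 to 0.25 in upper and from 0.018 to 0.35 in lower florets for feature 10415. For feature 7486 it ranged from -1.08 to -0.54 in upper and from 0.26 to 1.66 in lower florets. Microspore minus meiotic stages ranged from -0.016 to 0.064 for feature 10415 and from -0.19 to 0.045 for feature 7486. The mean floret difference stayed called in these fits for features 7442 (1.12 to 1.32), 10415 (0.24 to 0.32) and 7486 (-0.87 to -0.64). Counts over all features ranged from 1770 to 3273 and from 2016 to 3415 between the ends in upper and lower florets, from 1662 to 3003 for steps, from 0 to 73 for single-stage floret differences and from 0 to 6 for the interaction. The correlation of feature 7486 with feature 6005 (PMP3) was -0.044 within set 1. The causes of these changes were not tested. With 2 pools per group, small differences cannot be resolved.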
